A study of Mus musculus with 30 samples.

Results

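Transcripts of 31 genes of fatty acid oxidation, ketone body metabolism and the other targets of the receptor PPARA were followed in liver, interscapular brown adipose tissue (iBAT) and inguinal white adipose tissue (iWAT) of LFABP-/- and WT mice. The genes are the rows of the table, of 41549 in all, whose symbol is on a list of 31 symbols, and no threshold on a measured value entered the choice. The LFABP-/- group were 5 male mice lacking Fabp1, the gene of liver fatty acid-binding protein (LFABP), and the WT group were 5 male controls, both of C57Bl/6J background. Both groups ate a diet with 45% of energy as fat, rich in saturated fat, for 12 weeks from the age of 2 months and were fasted for 4 h before the tissues were taken, so no lean or low-fat group enters here. Each mouse gave 1 library per tissue, which makes 30 libraries from 10 mice.

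Long-chain fatty acids enter mitochondria as acylcarnitines and are shortened there by the repeated steps of beta-oxidation, while peroxisomes begin the oxidation of very long and branched chains. The liver turns part of the resulting acetyl-CoA into ketone bodies, and brown fat burns it to make heat. LFABP binds fatty acids in hepatocytes and enterocytes and can deliver them to the nucleus, where PPARA, a receptor for fatty acids, pairs with RXR and switches on most of the genes listed here. The comparison of LFABP-/- with WT mice asks how the transcripts of this program stand when that carrier is missing.

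The table gives 1 value per gene and library on the TPM scale, a share of the library's total after division by gene length, so levels can be set side by side between genes. Genes that averaged 1 or more over the 10 libraries of a tissue were compared on log2(value + 0.5) with limma, and a gene is called higher or lower at a Benjamini-Hochberg adjusted p under 0.1 over all genes tested. Between 16470 and 20502 genes were above 0 in a library. Read depth is unknown here, which leaves the spread between mice as the only measure of error. Fabp1 had values of 51.8, 13.7, 0.3, 0.6 and 0.2 in the livers of LFABP-/- mice, against 12672.1, 12697.6, 9165.5, 11860.2 and 12327.2 in the livers of WT mice (log2 difference -11.74, limma, adjusted p = 0.000986). In iBAT, where Fabp1 was not called (adjusted p = 0.276), it stood at 0.4, 2, 21.2, 15 and 13.1 in LFABP-/- mice and at 1.4, 0.2, 0.4, 5.1 and 8.7 in WT mice. LFABP-/- iBAT replicates 3, 4 and 5 were above every WT library, which goes against their labels, while the livers of the same mice stood at 0.3, 0.6 and 0.2. The names of these 3 libraries and of WT iBAT replicates 4 and 5 begin with G32, those of the other iBAT libraries with G30. Fabp1 was at 5.1 to 21.2 in iBAT libraries of the G32 prefix and at 0.2 to 2 in those of G30. The labels do not say what the prefix stands for. The source of these Fabp1 transcripts was not tested. In iWAT it stood at 0.9 or less in 4 LFABP-/- libraries and at 1.9 to 23.9 in WT libraries, but at 196.1 in the library labelled LFABP-/- replicate 1, which goes against its label.

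Some libraries also held transcripts of neighbouring tissues. Over 10 hepatocyte markers, all of them above 0 in some library of each group, the median level in iBAT was 0.169% to 1.98% of that in the liver of the same mouse in LFABP-/- mice, against 0.00232% to 0.0848% in WT mice, so the groups did not overlap. This share takes the liver of the same mouse as its base, which the Fabp1 values of the 3 iBAT libraries put in doubt. The same share was 2.08% in the iWAT library labelled LFABP-/- replicate 1 and 0.018% to 0.360% in the other 9 iWAT libraries. Skeletal muscle markers (14 genes) summed to 306.8 to 19567.3 in LFABP-/- and 1717.5 to 45661.2 in WT iBAT. In iWAT the 12 lymphocyte markers were high in LFABP-/- replicates 2, 3 and 4 and in WT replicates 3 and 4, and Ucp1, the heat-producing protein of brown fat, was at 962.3 in LFABP-/- replicate 2 against 1.6 to 32 in the other 9. In bulk tissue, fewer cells of a type and less RNA per cell cannot be told apart.

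In the liver, 4 of the 31 genes passed the test. Ppara, Cpt1a and Acot1 were lower and Echs1 was higher in LFABP-/- mice, and the enzymes between them in the pathway were not called. Over all 11629 genes tested in liver, 16.9% were called, 3.08% higher and 13.9% lower, against 12.9% of the 31, and 10% of all genes had groups that did not overlap, against 0 of the 31. The median log2 difference was -0.02 over the 31 and -0.105 over all genes. The 10 hepatocyte markers summed to 96657.1 to 117287.4 in LFABP-/- livers and 117360.7 to 139957.9 in WT livers, and their part in the differences was not tested. Much of the sum was Alb (41266.2 to 55105.3 in LFABP-/- and 62265.2 to 76918.6 in WT livers). Apoa2, Tat and Apoh had higher medians in LFABP-/- livers, the other markers lower ones. The mean log2 value of the 10 overlapped, at 12.203 to 12.479 in LFABP-/- and 12.424 to 12.591 in WT livers.

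Ppara, the receptor itself, had values of 57.4, 62.1, 81.9, 52.7 and 30.1 in the livers of LFABP-/- mice, against 128.8, 112.8, 101.6, 95.2 and 63.9 in the livers of WT mice. The groups overlapped through WT replicate 5, which lay below LFABP-/- replicate 3. The mean fell to 56.8 ± 18.6 in LFABP-/- livers, against 100.5 ± 24.1 in WT livers (SD, n = 5 each, log2 difference -0.85, standard error 0.25, limma, adjusted p = 0.0579, exact permutation p = 0.0159). Cpt1a, which makes the acylcarnitine at the outer mitochondrial membrane and is the regulated step of entry, had values of 147.3, 182.2, 155.3, 148.8 and 110.0 in LFABP-/- livers, against 243.9, 226.1, 203.9, 166.7 and 206.0 in WT livers. All but WT replicate 4 lay above every LFABP-/- library. The mean was 149 ± 25.8 in LFABP-/- and 209 ± 28.9 in WT livers (SD, n = 5 each, log2 difference -0.50, standard error 0.14, limma, adjusted p = 0.0482, exact permutation p = 0.0159).

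Acot1, a cytosolic enzyme that splits long-chain acyl-CoA, had values of 20.3, 25.3, 27.3, 17.3 and 9 in LFABP-/- livers, against 37.5, 58.1, 17.3, 46.4 and 52.5 in WT livers. Only WT replicate 3 lay within the range of the LFABP-/- livers. The difference was -1.06 on the log2 scale (standard error 0.35, limma, adjusted p = 0.084). Echs1, the hydratase of short-chain intermediates in the beta-oxidation spiral, had values of 59.8, 61.6, 68.9, 78 and 69.7 in LFABP-/- livers, against 61.1, 52.7, 52.7, 54.5 and 56.7 in WT livers. WT replicate 1 was the only WT library above any LFABP-/- library, and the log2 difference was 0.28 (standard error 0.09, limma, adjusted p = 0.0686).

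**Figure D1:**
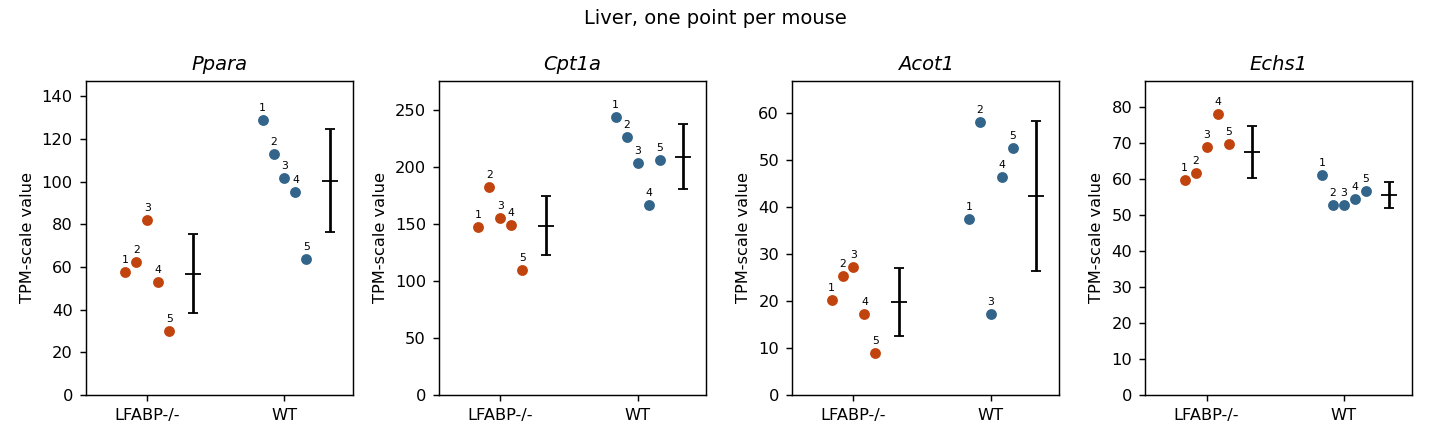
Values on the TPM scale (y axis, from 0) of Ppara, Cpt1a, Acot1 and Echs1 in the liver, with 1 point per mouse numbered by replicate, LFABP-/- on the left and WT on the right, and the mean and SD of 5 mice beside each group. The 4 genes are those called in liver, and in each panel the groups overlap by no more than 1 WT library.

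These calls were close to the threshold. Scaling by median ratios moved the median of all liver genes by over 0.1, to 0.003. Then 58.1% of the liver calls were higher in place of 18.2% (53.6% with quantile normalization), and 17.2% of all liver genes were called. Of the 31 genes 5 were higher under this scaling (Echs1, Acads, Bdh1, Etfa and Etfb) and 0 lower. Under it Cpt1a stood at -0.38 (adjusted p = 0.109), Ppara at -0.73 (adjusted p = 0.111), Acot1 at -0.94 (adjusted p = 0.104) and Echs1 at 0.39 (adjusted p = 0.0245). Mitochondrially encoded transcripts held 16.9% to 18.1% of the value in LFABP-/- livers and 12.1% to 15.1% in WT livers, without overlap. After rescaling without these transcripts and the top 10 genes, Ppara stood at -0.82 (adjusted p = 0.0761), Cpt1a at -0.47 (adjusted p = 0.0684) and Echs1 at 0.31 (adjusted p = 0.0611), and Acot1 was not called (-1.03, adjusted p = 0.107). Without WT replicate 2 none of the 4 was called (adjusted p = 0.124 for Cpt1a, 0.144 for Ppara, 0.167 for Echs1 and 0.1995 for Acot1), beside 6.43% of all genes. Ppara was also lost without LFABP-/- replicate 4 (0.116) or WT replicate 1 (0.104), Echs1 without LFABP-/- replicates 3 (0.113), 4 (0.142) or 5 (0.138) or WT replicate 3 (0.113), and Acot1 kept its call only without LFABP-/- replicates 2 (0.093) or 3 (0.0817) or WT replicate 3 (0.0298).

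Most other liver values lay close together between genotypes. The 4 acyl-CoA dehydrogenases, which take the first step of each beta-oxidation round for different chain lengths, differed by -0.06 to 0.13 on the log2 scale (limma, adjusted p from 0.32 to 0.938). The electron transfer flavoprotein genes Etfa and Etfb and its dehydrogenase Etfdh, which pass the electrons of that step to the respiratory chain, differed by -0.04 to 0.10. Of the carnitine shuttle, Cpt2 (-0.09) and the carrier Slc25a20 (-0.06) were not called beside Cpt1a. The peroxisomal genes Ehhadh, Acaa1a, Acaa1b and Hsd17b4 differed by -0.13 to 0.03, and Bdh1, which interconverts the ketone bodies acetoacetate and beta-hydroxybutyrate, by 0.17 (limma, adjusted p = 0.357). For 23 of the 31 genes the 95% interval of the liver difference lay within 0.5 of 0 on the log2 scale.

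The group of 4 other PPARA targets on the list (Pdk4, Vnn1, Cyp4a10 and Cyp4a14) held no call in liver. Cyp4a10 and Cyp4a14, fatty acid omega-hydroxylases, averaged 262 ± 102 and 198 ± 146 in LFABP-/- livers, against 268 ± 106 and 232 ± 185 in WT livers (SD, n = 5 each, limma, adjusted p = 0.972 and 0.931). Vnn1, a pantetheinase, averaged 48.7 ± 11.1 in LFABP-/- and 49.7 ± 14.9 in WT livers. Libraries moved together across the list: WT replicate 3 was the lowest WT liver for 27 of the 31 genes, and LFABP-/- replicate 4 was the highest LFABP-/- liver for 19.

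The start of Echs1 is shown since it holds 1 of the 3 matches that a search of the promoters found to the sequence PPARA and RXR bind, the half-site AGGTCA repeated with any 1 base (N) between the copies. The 300 bases run from 250 before to 50 after the annotated start in RefSeq (GRCm38.p6, chr7:140116372-140116671, minus strand), with the match in capitals. It begins 83 bases before the start and differs from the 12 fixed letters at 2 places.
Echs1: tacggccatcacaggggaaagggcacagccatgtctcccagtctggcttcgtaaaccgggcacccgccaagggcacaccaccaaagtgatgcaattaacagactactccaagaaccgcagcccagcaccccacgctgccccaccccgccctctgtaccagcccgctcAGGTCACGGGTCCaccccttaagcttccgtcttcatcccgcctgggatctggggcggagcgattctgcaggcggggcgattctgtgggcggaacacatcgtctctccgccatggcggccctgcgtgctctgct
Promoter entries were found for 24 of the 31 genes (25 promoters), and both strands were searched with up to 2 mismatches. A match was in 3 of the 25 promoters (12%), those of Echs1, Etfa and Slc25a20, and in 3.86% of all 32851 promoters. The intact half-site was in 4 of the 25 (16%) and in 16.26% of all promoters. The match of Echs1 includes its 1 intact half-site, so these counts overlap there, while the promoters of Etfa and Slc25a20 hold no intact half-site. A match is a description of the letters and not of binding.

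In iBAT, 16 of the 31 genes passed the test, 13 higher and 3 lower in LFABP-/- mice. Calls were spread over most steps, at a share near that of all genes tested, so the spread is not particular to the list. The 2 largest increases, of Acot2 and of Cyp4a10, differed in how they stood to the hepatocyte markers. The share called was 51.6% of the 31, beside 47.8% of all 11614 genes tested in iBAT (22.3% higher and 25.5% lower). Groups that did not overlap were found for 3 of the 31 (Acot2, Acaa1b and Etfb), beside 26.4% of all genes. The median log2 difference was 0.149 over the 31 and -0.035 over all genes. Of the 31, 24 were positive, beside 5296 of all 11614 genes, and the 31 moved together between libraries, as described below. Without LFABP-/- replicate 2, when 29 of the 31 were tested, 7 were higher and 3 lower, beside 44.1% of all genes called. Without LFABP-/- replicate 5, 19 were higher and 3 lower, beside 50%. Without the 3 LFABP-/- libraries above WT in Fabp1, 18 were higher and 0 lower, beside 41.7% of all genes called, and Acaa1a (-0.20, adjusted p = 0.136), Eci1 (-0.16, adjusted p = 0.203) and Acot1 (-0.94, adjusted p = 0.196) were not called. That fit, chosen after seeing the data, rests on LFABP-/- replicates 1 and 2, and Acot2 stood at 2.34 in it (adjusted p = 0.00571). It drops every LFABP-/- iBAT library of the G32 prefix and keeps the WT libraries of that prefix. With the prefix as a term and all 10 libraries, 14 of the 31 were higher and 3 lower, beside 50% of all genes called.

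The acyl-CoA thioesterases gave calls in opposite directions. Acot2, the mitochondrial form, had values of 245, 717.4, 305, 304.2 and 210 in iBAT of LFABP-/- mice, against 83.8, 111.6, 65.2, 69.1 and 91.4 in iBAT of WT mice. Every LFABP-/- library was above every WT library, and LFABP-/- replicate 2 stood far above the rest. The mean was 4.23 times as high in LFABP-/- iBAT (log2 difference 1.95, standard error 0.30, limma, adjusted p = 0.000946, exact permutation p = 0.0079, the smallest possible). Acot1 had values of 2.7, 7.5, 5.5, 4.2 and 4.6 in LFABP-/- iBAT, against 6.9, 17.4, 7.5, 5.5 and 13.3 in WT iBAT. The groups overlapped, and the log2 difference was -0.92 (standard error 0.33, limma, adjusted p = 0.0472, and 0.105 without LFABP-/- replicate 1).

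The peroxisomal thiolases, which release acetyl-CoA in the last step of peroxisomal beta-oxidation, also split. Acaa1b had values of 112, 171.1, 106.8, 82.9 and 58.7 in LFABP-/- iBAT, against 44.8, 45.9, 52.5, 37.7 and 43.9 in WT iBAT. All LFABP-/- libraries were higher than all WT libraries (log2 difference 1.15, standard error 0.24, limma, adjusted p = 0.00408). Acaa1a had values of 57.2, 50, 52.7, 51.6 and 46 in LFABP-/- iBAT, against 60.3, 68, 60.8, 63.9 and 56.3 in WT iBAT. Here only WT replicate 5 lay within the LFABP-/- range, and Acaa1a was lower (log2 difference -0.26, standard error 0.07, limma, adjusted p = 0.0139). Hsd17b4, a bifunctional enzyme of the same pathway, had values of 323.1, 333.8, 268.5, 304.2 and 219.1 in LFABP-/- iBAT, against 206.3, 228.2, 197, 188.4 and 193.8 in WT iBAT. Only LFABP-/- replicate 5 lay within the WT range (log2 difference 0.50, standard error 0.11, limma, adjusted p = 0.00613).

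These pairs are near copies, so the stretch of the coding sequence in which each pair differs most is shown, with the bases that differ in capitals (GENCODE M21, 60 bases, Acot1 and Acot2 on chromosome 12, Acaa1a and Acaa1b on chromosome 9, read along the coding strand).
Acot1 coding bases 823 to 882: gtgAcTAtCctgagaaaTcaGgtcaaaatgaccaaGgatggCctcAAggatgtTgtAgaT
Acot2 coding bases 946 to 1005: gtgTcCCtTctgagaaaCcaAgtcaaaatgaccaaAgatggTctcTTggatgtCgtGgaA
Acaa1a coding bases 259 to 318: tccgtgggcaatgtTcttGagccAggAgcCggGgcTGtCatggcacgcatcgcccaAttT
Acaa1b coding bases 259 to 318: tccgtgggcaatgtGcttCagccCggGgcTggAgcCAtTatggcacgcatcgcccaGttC
Even there only 13 of 60 and 11 of 60 bases differ, and over the aligned coding sequence identity was 95.3% for Acot1 with Acot2 and 96.5% for Acaa1a with Acaa1b. Of all windows of 100 bases, the read length, in the longest coding transcript, 21.9% of Acot1, 17.1% of Acot2, 21.6% of Acaa1a and 30.5% of Acaa1b are also found in another gene, mostly the other of the pair. The split of reads between the copies by the authors' counting is therefore uncertain in part, while the calls of each pair had opposite signs. Windows were also shared for Cpt1b (91.1%), Etfb (65.2%), Hadhb (52.8%), Cyp4a10 (12.7%), Acadvl (8.26%), Eci2 (6.93%) and Bdh1 (4.66%), and their levels carry the same doubt.

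**Figure D2:**
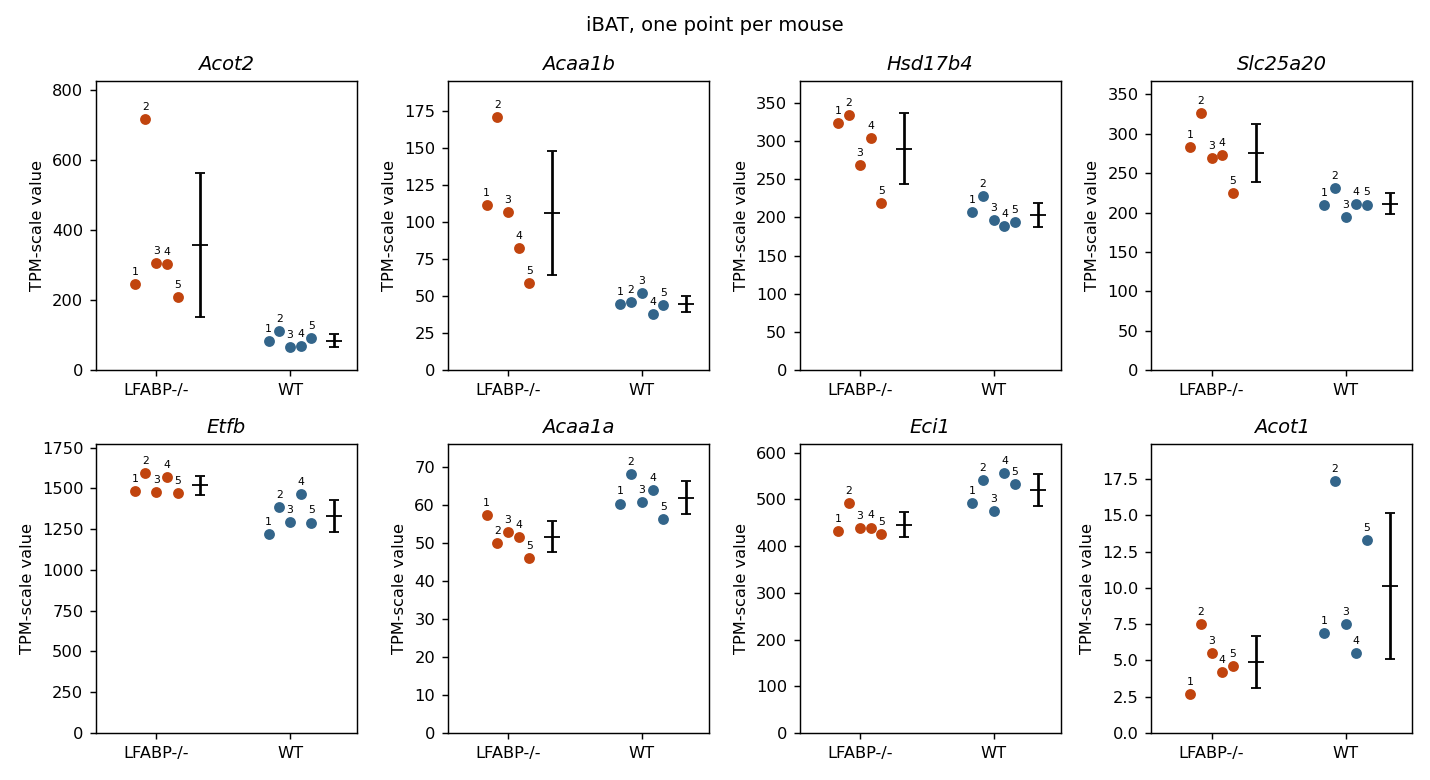
Values on the TPM scale (y axis, from 0) of 8 genes in iBAT, with 1 point per mouse numbered by replicate, LFABP-/- on the left and WT on the right, and the mean and SD of 5 mice beside each group. Acot2, Acaa1b and Etfb do not overlap between genotypes, and Acaa1a, Eci1 and Acot1 are lower in LFABP-/- mice.

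In mitochondria, 2 of 4 carnitine shuttle genes, 2 of 4 acyl-CoA dehydrogenases and 0 of 5 genes of the later spiral steps were higher in iBAT. Of these 13, 0 were lower. Over all genes tested in iBAT, 22.3% were higher and 25.5% lower, and whether these small groups differ from that was not tested. Slc25a20, which carries acylcarnitines across the inner membrane, had values of 283.2, 326.9, 269.3, 272.9 and 225.4 in LFABP-/- iBAT, against 209.6, 230.9, 194.6, 211.3 and 210.2 in WT iBAT. LFABP-/- replicate 5 alone lay below a WT library (log2 difference 0.37, standard error 0.09, limma, adjusted p = 0.00877). Etfb had values of 1483.5, 1593.3, 1475.4, 1568.3 and 1470.7 in LFABP-/- iBAT, against 1217.4, 1385.3, 1295.5, 1464.9 and 1290.2 in WT iBAT. The groups were separate by a narrow margin, between 1470.7 and 1464.9 (log2 difference 0.19, standard error 0.06, limma, adjusted p = 0.025). Eci1, an isomerase needed for unsaturated chains, had values of 433.4, 493.3, 438.8, 439.9 and 426 in LFABP-/- iBAT, against 493.1, 541.3, 474.6, 556.2 and 532.2 in WT iBAT. It was lower in LFABP-/- mice, with LFABP-/- replicate 2 inside the WT range (log2 difference -0.22, standard error 0.06, limma, adjusted p = 0.0182).

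The promoter of Slc25a20 is shown as that of the gene called in iBAT that holds a paired match (RefSeq, GRCm38.p6, chr9:108661886-108662185, plus strand, 250 bases before to 50 after the start, match in capitals, beginning 6 bases after the start, 2 mismatches).
Slc25a20: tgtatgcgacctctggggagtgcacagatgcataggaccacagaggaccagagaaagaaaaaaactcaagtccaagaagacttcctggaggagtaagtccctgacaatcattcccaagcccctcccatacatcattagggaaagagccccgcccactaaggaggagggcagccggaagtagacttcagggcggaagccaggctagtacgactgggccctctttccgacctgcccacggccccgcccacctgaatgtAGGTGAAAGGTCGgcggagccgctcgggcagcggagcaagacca

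Other mitochondrial genes were called at small differences. Decr1, a reductase for unsaturated chains, was higher by 0.26 on the log2 scale (adjusted p = 0.0366), the very long-chain dehydrogenase Acadvl by 0.22 (adjusted p = 0.0607) and the short-chain dehydrogenase Acads by 0.19 (adjusted p = 0.0948). Acadvl lost its call without LFABP-/- replicates 1, 2 or 4 or WT replicates 3 or 5 (adjusted p from 0.103 to 0.128). Acads lost its call without LFABP-/- replicates 1 to 4 or WT replicates 3 to 5 (from 0.138 to 0.189). Both also depended on the scaling. Rescaled without mitochondrial and top 10 genes, Acadvl stood at 0.16 (limma, adjusted p = 0.171) and Acads at 0.14 (0.285). Quantile normalization lost both calls (0.210 and 0.1975), and median-ratio scaling kept both (0.0188 and 0.0381). Pdk4, which holds pyruvate dehydrogenase inactive and so spares glucose, was higher by 0.46 (1061 to 2109 in LFABP-/- and 1106.7 to 1254.6 in WT iBAT, adjusted p = 0.0494, and 0.109 and 0.106 without LFABP-/- replicates 1 and 2). The middle of the spiral was not called: Hadha and Hadhb, the subunits of the trifunctional protein, whose promoters overlap head to head, differed by 0.13 and -0.02, and Acaa2, the mitochondrial thiolase, by 0.02. Ppara itself stood at 122.4, 90.9, 80.1, 90.7 and 59.8 in LFABP-/- iBAT, against 92.8, 73.6, 64, 71 and 60.9 in WT iBAT. The groups overlapped and Ppara was not called (log2 difference 0.27, limma, adjusted p = 0.256).

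Libraries again moved together across the list. LFABP-/- replicate 2 was the highest LFABP-/- iBAT library for 25 of the 31 genes and replicate 5 the lowest for 28. Replicate 2 had the highest hepatocyte share (1.98%), and replicate 5 had the lowest (0.169%) and the highest mean log2 value of skeletal muscle markers in its group (9.87). Brown adipocyte markers (5 genes) summed to 8967 to 11922.8 in LFABP-/- and 6704 to 8907.3 in WT iBAT, without overlap, and their part in the differences was not tested. Ucp1, Dio2 and Elovl3 were higher in every LFABP-/- library. Cidea overlapped (2488.4 to 3195.7 in LFABP-/- and 2405.8 to 3180.9 in WT iBAT), and the median of Zic1 was lower in LFABP-/- iBAT (1.5 against 2.6). With the skeletal muscle markers as a covariate, 11 of the 31 were higher and 3 lower, beside 47.8% of all genes called.

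For the genes that iBAT hardly expresses, the hepatocyte markers moved with the result. Cyp4a10 had values of 2.9, 3.7, 3.2, 0.9 and 0.4 in LFABP-/- iBAT, against 0.1, 0.3, 0.1, 0.2 and 0.4 in WT iBAT. LFABP-/- replicates 1, 2 and 3, with hepatocyte shares of 1.28%, 1.98% and 1.55%, were the highest, and replicate 5 equalled a WT library (log2 difference 1.70, standard error 0.41, limma, adjusted p = 0.0087). Cyp4a14 (log2 difference 0.97, limma, adjusted p = 0.0384) averaged 1.64 ± 1.07 in LFABP-/- and 0.5 ± 0.187 in WT iBAT, and Bdh1 (1.08, adjusted p = 0.0941) 3.1 ± 1.86 in LFABP-/- and 1.18 ± 0.955 in WT iBAT (SD, n = 5 each). Bdh1 lost its call without LFABP-/- replicates 1, 2, 3 or 5 or WT replicates 1, 2 or 3 (adjusted p from 0.11 to 0.197). Multiplying each library's share by the liver value of the same mouse gives 3.11 for Cyp4a10, 2.2 for Cyp4a14 and 2.17 for Bdh1 as the mean in LFABP-/- iBAT. After that amount was taken off, the log2 differences were -0.03, -0.10 and -0.17, with adjusted p of 0.935, 0.789 and 0.802 from limma. Values below 0 were set to 0 in this step. For Cyp4a10 and Cyp4a14 the amount exceeded the measured means of 2.22 and 1.64 in LFABP-/- iBAT, so their differences near 0 were largely set by the step. For Bdh1 the amount was 69.94% of the mean in LFABP-/- and 6.46% in WT iBAT, so its turn in direction came with the step too.

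The same step left most other calls in place. The amount was 0.142 of 356 for Acot2, 17.8 of 106 for Acaa1b and 3.15 of 289.7 for Hsd17b4 in LFABP-/- iBAT, and after it their log2 differences were 1.95 (limma, adjusted p = 0.000863), 0.93 (0.00678) and 0.49 (0.00643). Cpt1a had values of 8.5, 13, 8.5, 7.9 and 5.5 in LFABP-/- iBAT, against 4.6, 6.2, 4.5, 4.7 and 7.5 in WT iBAT. It was called as deposited (log2 difference 0.59, standard error 0.21, limma, adjusted p = 0.044) and not after the amount was taken off (0.34, adjusted p = 0.145). In all, 8 of the 31 were then higher and 4 lower, beside 47.4% of all genes called. The fourth was Vnn1 (-0.77, limma, adjusted p = 0.0645), which was not called as deposited (-0.20, adjusted p = 0.651). Vnn1 averaged 1.1 in LFABP-/- and 1.38 in WT iBAT. The step took off 49.35% of its mean in LFABP-/- and 1.31% in WT iBAT, so this call came with the step. With the mean of the hepatocyte markers as a covariate, in which the groups do not overlap, 0 were higher and 0 lower (Acot2 1.33, adjusted p = 0.246). Of all iBAT genes 4.1% were called then, so genotype and hepatocyte markers cannot be told apart in that fit. Over its alternatives the adjusted p of Acot2 ran from 0.000245 to 0.246.

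**Figure D3:**
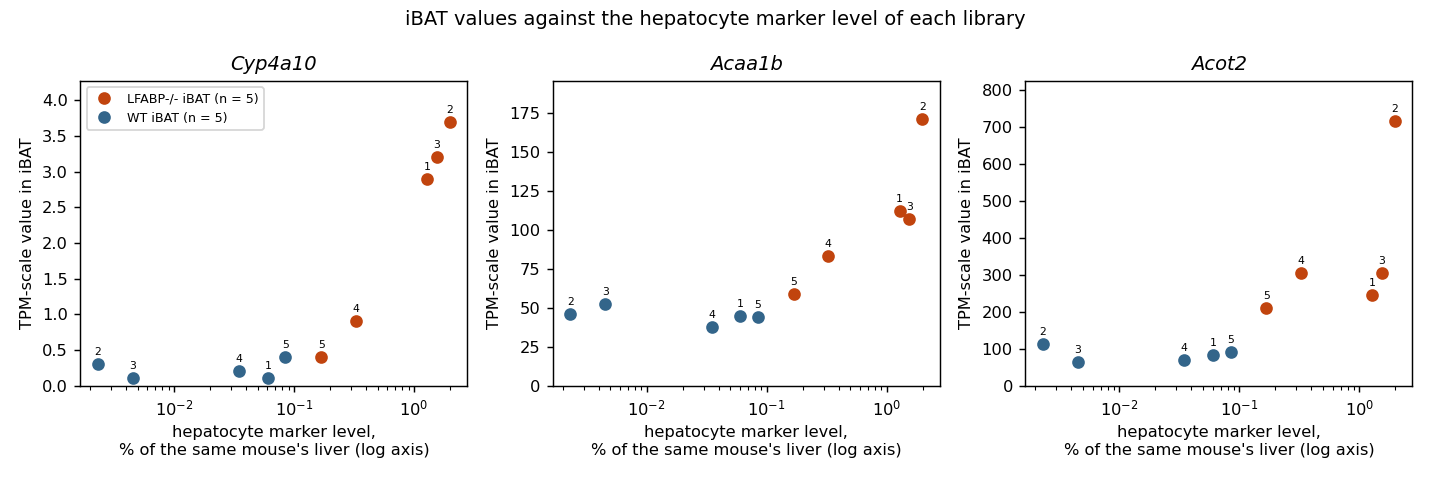
Values on the TPM scale (y axis) of Cyp4a10, Acaa1b and Acot2 in iBAT against the level of 10 hepatocyte markers in the same library, as a percent of the same mouse's liver (x axis, log scale), with 1 point per mouse numbered by replicate. LFABP-/- libraries lie at 0.169% to 1.98% and WT libraries at 0.00232% to 0.0848%, and LFABP-/- replicate 5 matches WT replicate 5 for Cyp4a10 (0.4) but stands above all WT libraries for Acot2 (210).

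In iWAT, 29 of the 31 genes had a mean of at least 1, and of these 1 was lower and 0 were higher in LFABP-/- mice. The exceptions were Cyp4a10 and Cyp4a14, which did not reach a mean of 1. By limma 2 had an unadjusted p under 0.05. Over all 14668 genes tested in iWAT, 1.45% were called, 0.682% higher and 0.77% lower, against 3.45% of the 29, and 3.11% of all genes had groups that did not overlap, against 1 of the 29. The median log2 difference was 0.004 over the 29 and 0.054 over all genes.

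The gene was Vnn1, which frees pantothenate and cysteamine from pantetheine and is a PPARA target in mouse liver. It had values of 11.1, 13.9, 9, 9.8 and 9.4 in iWAT of LFABP-/- mice, against 18, 22.3, 40.5, 23.1 and 30 in iWAT of WT mice. No LFABP-/- library reached a WT library, and the mean fell to 10.6 ± 1.99 in LFABP-/- iWAT, against 26.8 ± 8.79 in WT iWAT (SD, n = 5 each, log2 difference -1.25, standard error 0.21, limma, adjusted p = 0.035, exact permutation p = 0.0079). Without the library labelled LFABP-/- replicate 1 it stood at -1.27 (adjusted p = 0.0769). It was not called without WT replicate 5 (-1.20, adjusted p = 0.124) or without the 5 libraries high in lymphocyte markers (-1.13, adjusted p = 0.253). With brown adipocyte (0.131) or skeletal muscle markers (0.112) as a covariate it was not called either. Of all iWAT genes 0.347%, 0.0432%, 0.205% and 0.368% were called in these fits, in that order. Over all alternatives the log2 difference of Vnn1 ran from -1.38 to -1.09. Macrophage markers (6 genes) summed to 672.7 to 800.9 in LFABP-/- and 827.9 to 1470.2 in WT iWAT, without overlap, and their part in the difference was not tested.

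For Ppara, Cpt1b and Pdk4 a single iWAT library stood far from the rest. Ppara stood at 4.6, 27.2, 3.9, 3.3 and 4.7 in LFABP-/- iWAT, against 4.4, 8.7, 4.6, 4.5 and 9.1 in WT iWAT, with the library high in Ucp1 far above the rest (log2 difference 0.03, limma, adjusted p = 0.994). In the same library Cpt1b, the muscle and brown fat form of the entry enzyme, stood at 142.7 against 7.6 to 14.1 in the other 4 LFABP-/- libraries and 2.6 to 11.1 in WT libraries (log2 difference 1.69, limma, adjusted p = 0.436). Pdk4 stood there at 754.9 against 64.7 to 148.5 in the other LFABP-/- libraries and 57.1 to 113.1 in WT libraries. Cpt1a, the form of liver and white fat, had values of 43.1, 44, 48.7, 53.4 and 52.6 in LFABP-/- iWAT and of 50.1, 35.4, 41.6, 58.8 and 38.9 in WT iWAT. Its groups overlapped widely (log2 difference 0.12, adjusted p = 0.93). LFABP-/- replicate 2 was the highest of its group for 19 of the 31 genes, and WT replicate 4, which was high in lymphocyte markers, the lowest of its group for 21. The median width of the 95% interval was 1.01 in iWAT, against 0.47 in liver and 0.40 in iBAT, so differences that pass in the other tissues could be missed here.

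**Figure D4:**
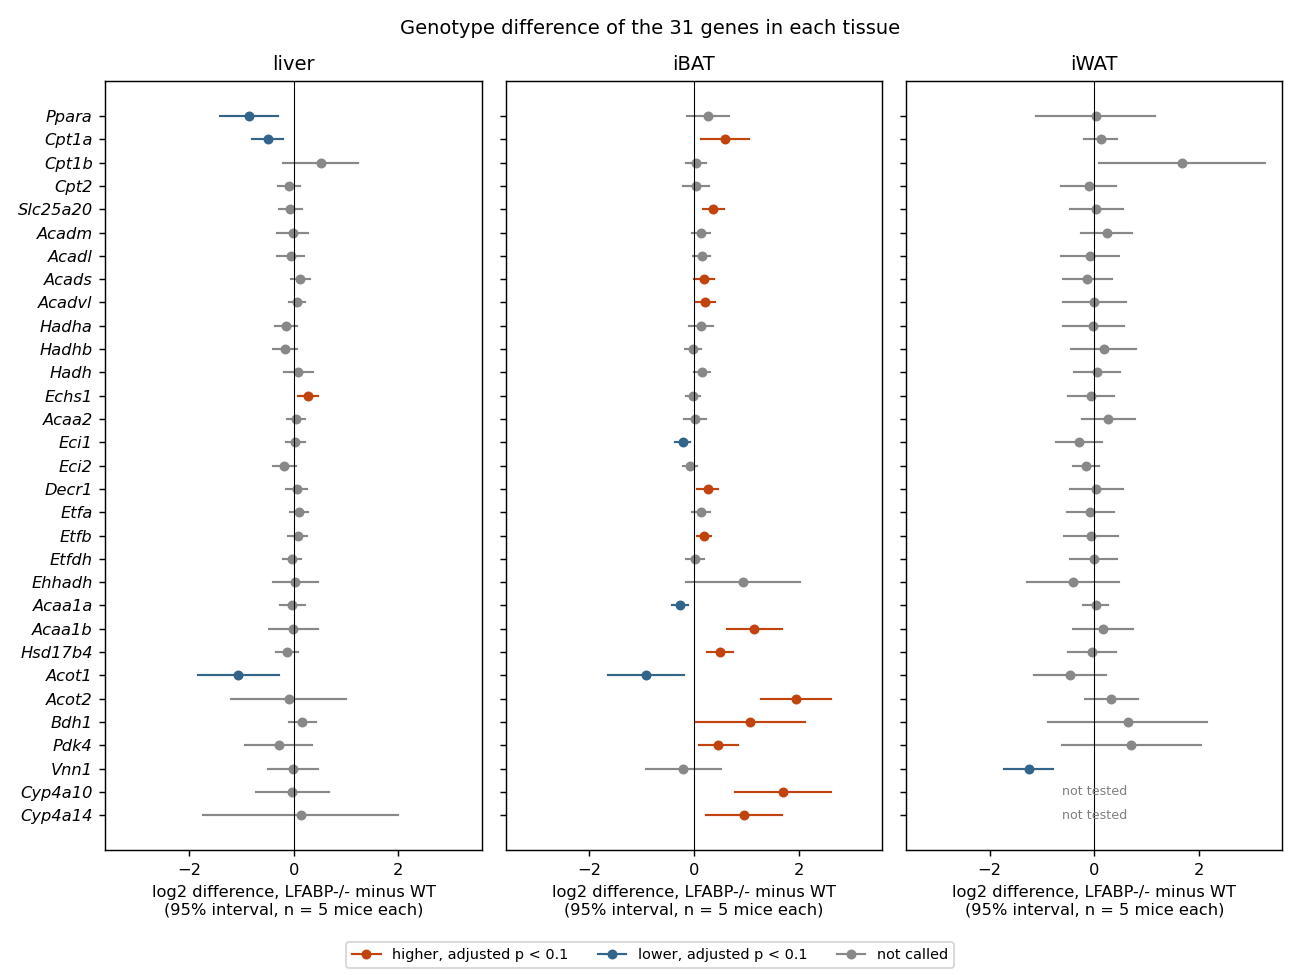
Log2 difference of LFABP-/- minus WT (x axis) for the 31 genes (rows, in the order of the pathway) in liver, iBAT and iWAT, as the limma estimate with its 95% interval, 5 mice per genotype. Orange marks genes called higher (1 in liver, 13 in iBAT, 0 in iWAT), blue genes called lower (3, 3 and 1) and grey genes not called, and Cyp4a10 and Cyp4a14 were not tested in iWAT.

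Whether the genotype difference itself differed between tissues was read from a limma model over the 30 libraries in which the mouse was a random block. Cpt1a, lower in LFABP-/- liver and higher in LFABP-/- iBAT, had the smallest p of the list. Between liver and iBAT 5 of 31 genes were called, beside 16.7% of all 13925 genes, all with the more negative difference in liver: Cpt1a (-1.09, adjusted p = 0.00472), Acot2 (-2.05, adjusted p = 0.018), Acaa1b (-1.16, adjusted p = 0.0344), Cyp4a10 (-1.73, adjusted p = 0.046) and Hsd17b4 (-0.63, adjusted p = 0.0546). After the hepatocyte share was taken off the iBAT and iWAT values, Cpt1a remained at -0.84 (adjusted p = 0.0173) and Cyp4a10 stood at 0.01 (adjusted p = 0.994). For Cyp4a10 the amount exceeded the LFABP-/- iBAT mean, so its values after this step were largely set by it. Between iBAT and iWAT 4 were called, beside 11.9% of all genes: Acot2 (1.62, adjusted p = 0.0816), Cyp4a10 (1.60, adjusted p = 0.0841), Acaa1b (0.98, adjusted p = 0.0957) and Vnn1 (1.05, adjusted p = 0.0986). The mean of at least 1 was taken over all 30 libraries here, so Cyp4a10 entered through its liver values. It averaged 0.62 in LFABP-/- and 0.44 in WT iWAT, and 2.22 and 0.22 in iBAT, so this call rests on values near 0. Between liver and iWAT 1 was called, beside 3.6% of all genes, Vnn1 (1.24, adjusted p = 0.0988). After the share was taken off, Acot2 remained called between iBAT and iWAT (1.62, adjusted p = 0.0934), and Cyp4a10 (0.09, adjusted p = 0.922), Acaa1b (0.78, adjusted p = 0.185) and Vnn1 (0.50, adjusted p = 0.492) were not. All calls against iWAT lay near the threshold, and leaving out 1 mouse at a time gave 0 to 7 between iBAT and iWAT and 0 to 2 between liver and iWAT.

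Behind these differences the list is laid out differently in the 3 tissues of WT mice. The 31 genes together held 1.49% to 1.76% of the value in WT iBAT, 0.605% to 0.861% in WT liver and 0.337% to 0.588% in WT iWAT. Of the 31, 19 had their highest WT mean in iBAT, 11 in liver and 1, Hsd17b4, in iWAT. The mitochondrial spiral was highest in iBAT, where Acaa2 averaged 2574 ± 329, the long-chain dehydrogenase Acadl 1977 ± 130, Acadvl 1827 ± 154, Etfb 1331 ± 95.8 and Pdk4 1168 ± 70.2 (SD, n = 5). In WT liver the 5 highest were Acaa1b (1699 ± 421), Acaa2 (1246 ± 76.1), Etfb (535 ± 37.4), Etfa (405 ± 23.7) and Acadvl (374 ± 22.5). In WT iWAT they were Etfb (676 ± 155), Etfa (529 ± 112), Acadl (489 ± 119), Hsd17b4 (327 ± 74.6) and the medium-chain dehydrogenase Acadm (310.2 ± 63.3).

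The 11 genes highest in WT liver were Ppara, Cpt1a, the isomerase Eci2, Ehhadh, Acaa1a, Acaa1b, Acot1, Bdh1, Vnn1, Cyp4a10 and Cyp4a14. Cpt1a averaged 209 ± 28.9 in WT liver, 5.5 ± 1.32 in WT iBAT and 45 ± 9.45 in WT iWAT, while Cpt1b averaged 1.92 ± 1.35 in WT liver, 553 ± 60.1 in WT iBAT and 5.92 ± 3.15 in WT iWAT. In the fit of all libraries, liver minus iBAT was 5.14 for Cpt1a and -8.01 for Cpt1b on the log2 scale (limma, adjusted p = 4.21e-20 and 2.05e-14). The largest liver excess over iBAT was that of Cyp4a10 (8.46), before Cyp4a14 (7.18) and Bdh1 (6.94). Pdk4 (-7.27) and Acot2 (-2.60) stood on the other side, lower in liver than in iBAT. Neighbours that were not called apart included Ppara in liver and iBAT (0.45, limma, adjusted p = 0.291), Ehhadh in liver and iBAT (0.58, adjusted p = 0.219), Hsd17b4 in liver and iWAT (0.001, adjusted p = 0.997) and Eci2 in iBAT and iWAT (-0.01, adjusted p = 0.913). The other 5 such pairs were Slc25a20 (0.21) and Hadha (0.04) in liver and iWAT, and Bdh1 (-0.40), Cyp4a10 (-0.34) and Cyp4a14 (0.06) in iBAT and iWAT (limma, adjusted p from 0.23 to 0.926).

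Of the 31, 10 were higher and 19 lower in liver than in iBAT, beside 40.1% and 33.6% of all 13925 genes. Against iWAT, 14 were higher and 14 lower in liver, beside 13.7% and 77.6%, and 22 were higher and 5 lower in iBAT, beside 7.29% and 84.6%. Mitochondrially encoded genes held 54.4% to 60.1% of the value in WT iBAT and 13.3% to 20.6% in WT iWAT, and after rescaling without them 2 genes in place of 5 were lower in iBAT.

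**Figure D5:**
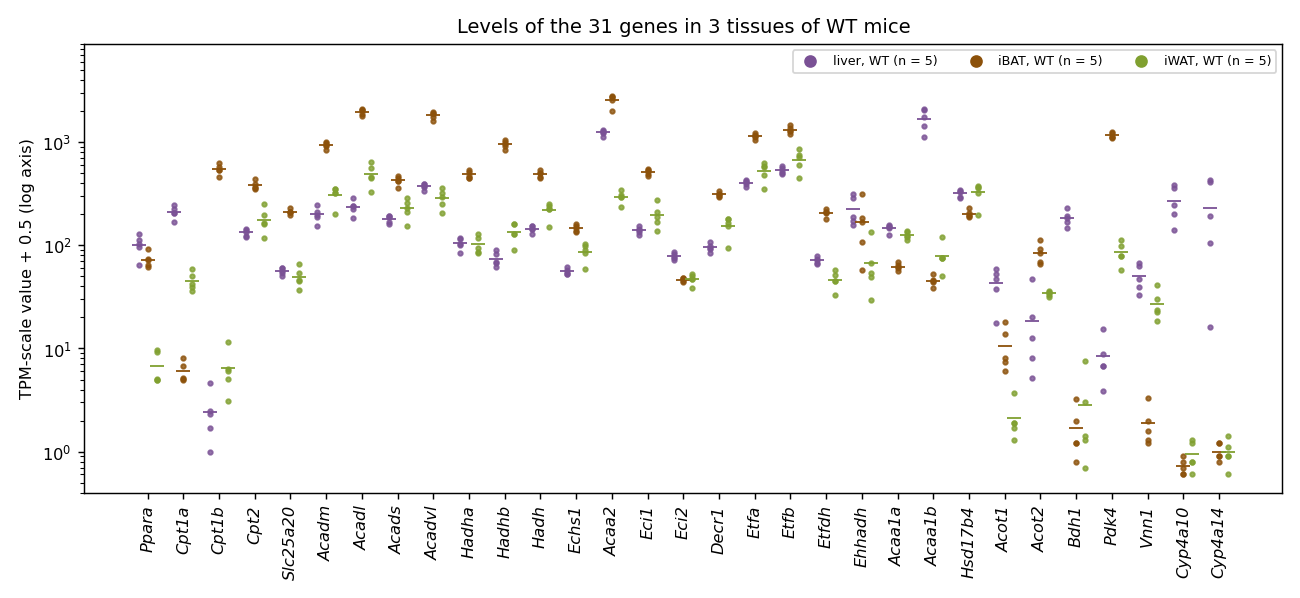
Value + 0.5 on the TPM scale (y axis, log scale) of the 31 genes (x axis, in the order of the pathway) in liver, iBAT and iWAT of WT mice, with 1 point per mouse and a dash at the mean of 5. Most genes of the mitochondrial spiral are highest in iBAT (Acaa2 mean 2574), while Cpt1a, Acaa1b, Bdh1, Cyp4a10 and Cyp4a14 are highest in liver.

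Other genes of the pathway, 84 in all, were read from a further list. In liver 5 of 81 tested were higher and 11 lower, in iBAT 20 of 73 higher and 17 lower, and in iWAT 1 of 75 higher and 0 lower. The shares called were 19.8%, 50.7% and 1.33% of this list, near the 16.9%, 47.8% and 1.45% of all genes. In liver those named here were Esrra, an orphan receptor that drives mitochondrial genes, which was higher (0.63, limma, adjusted p = 0.00967), and, all lower, the malonyl-CoA decarboxylase Mlycd (-0.43, adjusted p = 0.0162), the mitochondrial CoA carrier Slc25a42 (-0.54, adjusted p = 0.0168), the PPARA relative Ppard (-0.43, adjusted p = 0.0178) and the corepressor Ncor1 (-0.47, adjusted p = 0.0194). Esrra was the 1 called gene of the list in iWAT, at 88.5, 105.6, 133.3, 116.4 and 81.5 in LFABP-/- mice, against 32.5, 31.3, 33.9, 40.7 and 30.1 in WT mice. The groups were far apart (log2 difference 1.61, standard error 0.14, limma, adjusted p = 0.00128), and in iBAT it was higher by 0.18 (adjusted p = 0.0524).

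In iBAT the smallest p of the further list was that of Fgf21, a hormone whose gene PPARA induces in liver, at 20.2, 59.4, 14.7, 20 and 16.2 in LFABP-/- mice, against 0.7, 0.4, 0.4, 0.1 and 0.3 in WT mice. All LFABP-/- libraries were above all WT libraries (log2 difference 4.74, standard error 0.35, limma, adjusted p = 3.46e-05), and LFABP-/- replicate 2 stood far above the rest of its group. The hepatocyte share times the liver value comes to 0.124, beside a mean of 26.1 in LFABP-/- iBAT. In liver Fgf21 was not called (8.1 to 14.6 in LFABP-/- and 5.4 to 36.1 in WT mice, adjusted p = 0.425). Also higher in iBAT were the peroxisomal thioesterase Acot8 (0.90, adjusted p = 0.000434), the branched-chain oxidase Acox2 (1.71, adjusted p = 0.000495) and the carrier of ketone bodies and lactate Slc16a1 (1.19, adjusted p = 0.000502). Lower were Oxct1, which activates ketone bodies for oxidation (-0.60, adjusted p = 0.000443), and Ppard (-0.72, adjusted p = 0.000474).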

How the data were processed

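RNA of liver, iBAT and iWAT of 5 LFABP-/- and 5 WT mice was sequenced as poly(A) selected, single-end libraries, which the authors mapped to GRCm38 in CLC Genomics Workbench. The deposited values are named RPKM by the authors but are on the TPM scale, since each library sums to between 999967.3 and 999996.4, and they are rounded to 1 decimal. Reads per library are not given in the sources used here, so precision rests on the spread between mice. With limma 3.58.1 (R 4.3.3), genes with a mean of at least 1 were fitted per tissue on log2(value + 0.5) with an intensity trend, two-sided, with Benjamini-Hochberg adjustment over all genes and calls at an adjusted p under 0.1. The pseudocount understates changes of low genes. Single genes were also compared by the exact permutation test over 252 assignments. Differences between tissues came from 1 fit of 30 libraries with the mouse as a block (statmod 1.5.0, consensus correlation -0.0161). The hepatocyte share is the median ratio of 10 markers to the same mouse's liver. The procedure was tested on simulated data. Alternatives covered the pseudocount, filters, scalings, library weights, a replicate block, covariates and each library left out.

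The members and lists were chosen with earlier results of these data known. Values in every library are given for Fabp1, Ppara, Cpt1a and up to 8 called genes per tissue, further called genes by their difference, and up to 6 genes per tissue of the further list, by smallest p. Some results of the further list are not reported here. Promoters came from RefSeq (GRCm38.p6) and transcripts from GENCODE M21.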

Additional observations from a re-analysis of the deposited data

Results flagged for a closer look

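Of 50 groups of 5 libraries looked at, for 25 pairs of gene and tissue named above, 9 held a library whose gap to the nearest other exceeded 0.71 of the whole range. Cpt1b and Pdk4 in iWAT are described above because 1 library stood far out, and several of the 9 fall in the same library. The count can therefore not be set against a chance rate. The 9 were Acot2 in iBAT of LFABP-/- replicate 2 (717.4), Eci1 in the same library (493.3), Fgf21 in the same library (59.4), Ppara, Cpt1b and Pdk4 in iWAT of LFABP-/- replicate 2 (27.2, 142.7 and 754.9), Fabp1 in liver of LFABP-/- replicate 1 (51.8), Fabp1 in liver of WT replicate 3 (9165.5) and Fabp1 in iWAT of the library labelled LFABP-/- replicate 1 (196.1).

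The genotype difference differed between tissues, by the contrast within the fit of all 30 libraries with limma, for 10 pairs of gene and contrast. Liver minus iBAT was -2.05 for Acot2 (adjusted p = 0.018), -1.73 for Cyp4a10 (adjusted p = 0.046), -1.16 for Acaa1b (adjusted p = 0.0344), -1.09 for Cpt1a (adjusted p = 0.00472) and -0.63 for Hsd17b4 (adjusted p = 0.0546) on the log2 scale. Liver minus iWAT was 1.24 for Vnn1 (adjusted p = 0.0988). Finally, iBAT minus iWAT was 1.62 for Acot2 (adjusted p = 0.0816), 1.60 for Cyp4a10 (adjusted p = 0.0841), 1.05 for Vnn1 (adjusted p = 0.0986) and 0.98 for Acaa1b (adjusted p = 0.0957). Cyp4a10 entered this fit through its liver values, and its iWAT means were 0.62 in LFABP-/- and 0.44 in WT mice. With the hepatocyte share taken off, a choice made after seeing the data, the values of Cyp4a10 were 0.01 for liver minus iBAT and 0.09 for iBAT minus iWAT (adjusted p = 0.994 and 0.922), and iBAT minus iWAT was 0.78 for Acaa1b and 0.50 for Vnn1 (adjusted p = 0.185 and 0.492). The other 6 values kept their call. For Cyp4a10 the amount taken off exceeded its LFABP-/- iBAT mean, so its values after the step were largely set by it.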

How the results depend on the processing

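Over the 21 called pairs of gene and tissue, 434 of 543 alternatives kept the direction and the call, 103 lost the call and 6 turned the direction. Chosen after seeing the data, the hepatocyte share taken off turned Cyp4a10 (-0.03), Cyp4a14 (-0.10) and Bdh1 (-0.17) in iBAT. For Cyp4a10 and Cyp4a14 the amount taken off exceeded the LFABP-/- iBAT mean. For Bdh1 the amount was 69.94% of the LFABP-/- and 6.46% of the WT iBAT mean, so these turns came with the step. Hepatocyte markers as a covariate turned Cpt1a (-0.045), Bdh1 (-0.31) and Pdk4 (-0.074) there. With library weights in iWAT, Acadvl (-0.47), Hadh (-0.37) and Decr1 (-0.41) turned and were called. The cause was not tested.

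Of the 31 genes in liver, the counts of higher and lower calls were 1 and 3, against 5 and 0 with median-ratio scaling, 2 higher with library weights, 0 higher with 1 fit of all 30 libraries, 0 and 1 at an adjusted p under 0.05, and 0 to 2 and 0 to 3 with each library left out. In iBAT 13 higher became 8 at a mean of at least 20, 8 with the hepatocyte share taken off and 7 in 1 fit of all 30 libraries. With hepatocyte markers as a covariate 13 higher became 0 (and 0 lower), beside 4.1% of all iBAT genes called. With each library left out there were 7 to 19 higher and 2 to 3 lower, and 3 lower became 0 without the 3 LFABP-/- libraries above WT in Fabp1. In iWAT the 1 lower became 0 at a mean of at least 20 and with skeletal muscle or brown adipocyte markers as a covariate. It also became 0 without the 5 libraries high in lymphocyte markers. Of all iWAT genes 0.368%, 0.205% and 0.0432% were called with muscle markers, with brown adipocyte markers and without those 5 libraries. With library weights the 1 lower became 15, when 62.4% of all iWAT genes were called, and with each library left out 0 to 1. The 0 higher became 2 with those weights and 1 in the fit of all 30 libraries.

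Of the further list in liver, 5 higher became 3 with no filter, 3 at an adjusted p under 0.05 and 2 to 6 with each library left out, and 11 lower became 6 at a mean of at least 20 and 5 to 17 with each library left out. In iBAT 20 higher became 10 at a mean of at least 20, 2 (and 1 lower) with hepatocyte markers as a covariate and 15 to 29 with each library left out, and 17 lower became 10 in 1 fit of all 30 libraries, 11 without the 3 libraries above WT in Fabp1 and 15 to 18 with each library left out. In iWAT 1 higher became 2 when rescaled without mitochondrial genes and the top 10 genes, 12 with library weights, 6 with lymphocyte markers as a covariate, 3 in the fit of all 30 libraries and 1 to 2 with each library left out, and 0 lower became 1, 34, 3 and 4 at a mean of at least 20, with library weights, with lymphocyte markers and in that fit, and 0 to 1 with each library left out. Between tissues, the 5 genes for liver and iBAT became 3 to 5, the 1 for liver and iWAT 0 to 2 and the 4 for iBAT and iWAT 0 to 7 with each mouse left out, and 1 for iBAT and iWAT with the hepatocyte share taken off. In WT mice 5 lower in iBAT than iWAT became 2 when rescaled without mitochondrial genes.

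The replicate numbers do not pair mice between genotypes: with a replicate block the counts of higher calls were 0 of the 31 and 3 of the further list in liver, 17 of the 31 in iBAT and 2 of the further list in iWAT, and correlations of same-numbered libraries ran from -0.53 to 0.669. Depth is unknown, and values below 1 rest on 1 decimal.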
